A study of Rattus norvegicus with 12 samples.

Results

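Acan and Cspg4 encode the core proteins of a pair of chondroitin sulfate proteoglycans, aggrecan and NG2, and both were measured by RNA sequencing in cultured rat oligodendrocyte precursor cells (OPCs). They were picked, as 2 of 30562 annotated genes, because their RNA moved in opposite directions when the cells received inflammatory cytokines, so their values in both cytokine comparisons are given below as a description, with no test. Both genes had counts well above the filter of a mean count of 5 in all 12 libraries: the lowest single count was 79 for Acan and 344 for Cspg4. With cytokines, Acan RNA was 7.88-fold lower and Cspg4 RNA 4.01-fold higher, and 10 nM galinex, given 6 h later, did not measurably move either gene.

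A chondroitin sulfate proteoglycan is a protein that carries long sulfated sugar chains. Aggrecan is a large secreted lectican that binds hyaluronan and is a main component of cartilage and of the perineuronal nets around neurons. NG2 spans the plasma membrane, is the classical surface marker of OPCs, is also made by pericytes, and is lost as OPCs mature into myelinating oligodendrocytes. Chondroitin sulfate chains in the matrix of the injured brain are known to hinder axon growth and OPC maturation.

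The cells were primary OPCs shaken off mixed glial cultures of wild-type Sprague-Dawley rat cortex, from male and female pups (postnatal days 0 to 2). All were switched to differentiating medium at the time of treatment. CTL cells received neither agent, GAL cells galinex (an agonist of the receptor GPR17) alone, CTK-2 cells a cocktail of the cytokines IFN-γ, TNF-α and IL-1β, each at 2 ng/mL, and CTK2+GAL cells the cytokines and then galinex, with DMSO as the vehicle. Each group had 3 libraries, and RNA was taken 24 h after galinex. Since the labels do not say that libraries came from separate cultures, p-values measure only the spread between these libraries. The libraries held 2600797 to 8978185 counted read pairs. CTL replicate 3 and GAL replicate 3 stood apart from the others of their groups: CTL replicate 3 was the highest of the CTL libraries in 933 of the 1558 genes called higher in CTK2+GAL against GAL, and GAL replicate 3 the highest of the GAL libraries in 830 of the 1538 genes called higher in CTK-2 against CTL. The log2 differences of Acan and Cspg4 in CTK-2 against CTL, CTK2+GAL against GAL and GAL against CTL are given with and without these libraries.

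In the rat annotation of mRatBN7.2, Acan (ENSRNOG00000028992) lies on the plus strand of chromosome 1 from 132981582 to 133043627, with 18 exon blocks and 6939 exonic bases. Cspg4 (ENSRNOG00000017208) lies on the plus strand of chromosome 8 from 57264962 to 57300010, with 10 exon blocks and 8077 exonic bases. The promoters of both genes are printed since the RNA levels moved apart under the same cytokines. The sequences are the 250 bases before the RefSeq start, 5′ to 3′, on build GRCr8 and the plus strand (chr1:142390701-142390950 for Acan and chr8:66160692-66160941 for Cspg4). Capitals mark matches to a kappaB decamer, bound by NF-κB factors, and to the GC box GGGCGG, bound by Sp factors, on either strand.
Acan: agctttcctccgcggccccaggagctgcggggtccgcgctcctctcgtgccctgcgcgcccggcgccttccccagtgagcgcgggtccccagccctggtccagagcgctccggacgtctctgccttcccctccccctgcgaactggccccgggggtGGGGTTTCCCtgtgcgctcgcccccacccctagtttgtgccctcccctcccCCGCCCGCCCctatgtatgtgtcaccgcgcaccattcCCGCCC
Cspg4: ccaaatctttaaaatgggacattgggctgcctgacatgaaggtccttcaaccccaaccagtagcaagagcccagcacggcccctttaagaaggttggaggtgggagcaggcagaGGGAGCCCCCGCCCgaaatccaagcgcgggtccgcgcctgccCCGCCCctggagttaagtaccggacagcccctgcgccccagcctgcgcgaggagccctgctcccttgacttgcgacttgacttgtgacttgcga
The letters GGGGTTTCCC in Acan began 94 bases before the start, and the letters GGGAGCCCCC in Cspg4 began 136 bases before it and overlapped the first of the GC boxes. Acan held 3 GC boxes, some of them overlapping, and Cspg4 held 2. Among 33469 promoters of this length, 6.33% held a kappaB decamer and 30.5% a GC box. Neither window held, on either strand, the interferon motifs GAS (TTCNNNGAA, 7.67% of promoters) or ISRE core (3.41%), the AP-1 motif TGANTCA (6.34%) or TATAAA (12.9%). The GC content was 73.6% for Acan and 62% for Cspg4, against a median of 51.2%. This was above 95.5% of promoters for Acan and above 79% for Cspg4. The motif shares are over all promoters and are not matched for GC content. Of the 6 named core protein genes, 4 had an entry, and neither Vcan nor Cd44 held a kappaB decamer. These matches are a description of letters and not of binding.

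Acan RNA fell to a low level in every cytokine-treated library. In counts per 1000000 counted pairs (CPM, scaled by TMM), the CTL libraries gave 168, 161 and 126, and the GAL libraries 177, 155 and 119. The CTK-2 libraries gave 16.5, 18.9 and 21.9, and the CTK2+GAL libraries 20.6, 16.9 and 18.7. The lowest library without cytokines was thus above the highest library with them, and the third replicate was the lowest in both groups without cytokines. The share of all genes that separate in this way over all 12 libraries was not computed. The group means were 152 ± 22.6 CPM in CTL, 150.0 ± 29.3 in GAL, 19.1 ± 2.68 in CTK-2 and 18.7 ± 1.87 in CTK2+GAL (SD, n = 3). In that order of levels, CTL and GAL overlapped, and so did CTK-2 and CTK2+GAL. CTK-2 differed from CTL by -2.98 on the log2 scale (standard error 0.15). This was the 4th lowest log2 fold change of the 13348 genes tested.

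Cspg4 RNA showed the opposite order. The CTL libraries gave 127, 122 and 158 CPM and the GAL libraries 133, 108 and 132. The CTK-2 libraries gave 567, 508 and 561 CPM and the CTK2+GAL libraries 529, 517 and 484. Every library with cytokines was above every library without them, and CTL replicate 3 was the highest of those without. For this separation too, the share of all genes was not computed. The means were 136 ± 19.3 CPM in CTL, 124 ± 14.1 in GAL, 545 ± 32.7 in CTK-2 and 510.2 ± 23.4 in CTK2+GAL (SD, n = 3), with overlap again within each pair of groups that differed in galinex only. CTK-2 differed from CTL by 2.00 on the log2 scale (standard error 0.094), the 448th highest of the genes tested.

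**Figure D1:**
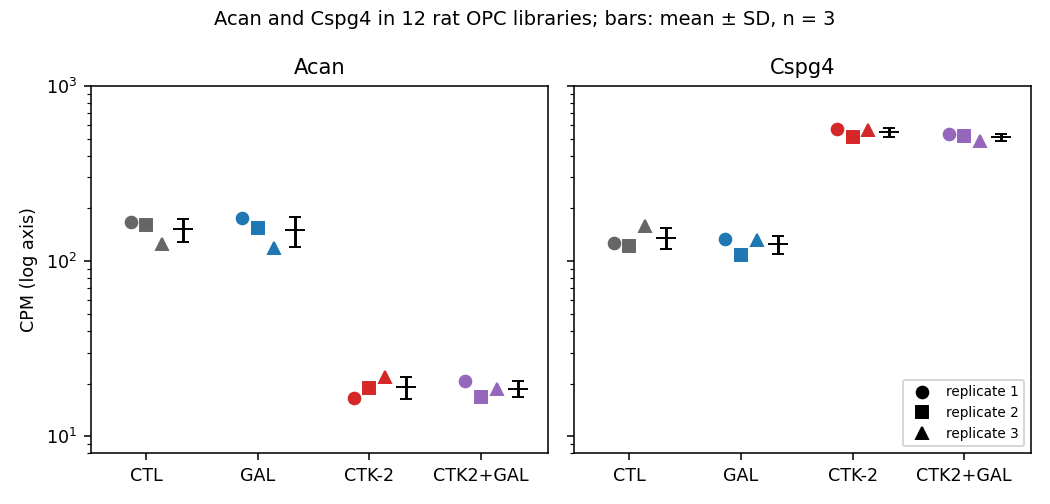
CPM of Acan (left) and Cspg4 (right) on a log axis in the 3 libraries of each group, with the group mean and SD (n = 3) beside the points and a marker shape for each replicate number. Acan lies between 119 and 177 without cytokines and between 16.5 and 21.9 with them, and Cspg4 between 108 and 158 without and between 484 and 567 with them.

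The same cytokine difference was taken between the 2 groups that received galinex. In CTK2+GAL against GAL, the log2 difference of Acan was -2.98 (standard error 0.15), which is 7.89-fold lower, and that of Cspg4 was 2.04 (standard error 0.095), which is 4.11-fold higher. The direction in both comparisons is what the genes were picked for. For all other genes, a call needed an adjusted p of at most 0.05 in edgeR (quasi-likelihood test, Benjamini-Hochberg over all genes tested) and a log2 fold change of at least 0.59 in size. In this comparison 17.4% of the genes tested were called (11.7% higher and 5.74% lower), and in 49.5% the 2 groups did not overlap. In CTK-2 against CTL, 17.3% were called (11.5% higher and 5.79% lower), and 49.1% did not overlap. Without the third replicates of CTL and GAL, the log2 fold changes in CTK-2 against CTL were -3.10 for Acan and 2.13 for Cspg4, and those in CTK2+GAL against GAL were -3.13 and 2.11.

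The level of each gene among all genes also changed places. Per kb of exon, Acan averaged 21.8 CPM in CTL, above 74.8% of the genes tested, and 2.75 CPM in CTK-2, above 22.2%. Cspg4 averaged 16.8 CPM per kb in CTL, above 68.1% of the genes, and 67.5 in CTK-2, above 93.8%. In CTK2+GAL the values per kb were 2.70 for Acan and 63.2 for Cspg4.

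Other core proteins of the family moved in both directions. Gene symbols were available only for genes that the study itself had called in CTK-2 against CTL on these libraries, so counts of called genes in that comparison are no independent evidence, and the choice also favours a call in CTK2+GAL against GAL, where the cytokines were the same. Of 14 core protein genes listed, 6 could be named, and beside Acan and Cspg4 the other 4 split into 3 called higher and 1 called lower in both cytokine comparisons. Vcan encodes versican, a lectican like aggrecan that is abundant in OPC cultures. Vcan averaged 1761 ± 142 CPM in CTL and 945 ± 42.0 in CTK-2 (SD, n = 3), and fell by 0.90 on the log2 scale in CTK2+GAL against GAL (edgeR adjusted p = 2.66e-09). Cspg5, which encodes the membrane-spanning neuroglycan C, averaged 78.0 ± 6.11 CPM in CTL and 282 ± 5.82 in CTK-2 and rose by 1.82 in CTK2+GAL against GAL (edgeR adjusted p = 2.57e-12). Ptprz1, a receptor-type phosphatase whose secreted form is the proteoglycan phosphacan, rose by 0.63, and the hyaluronan receptor gene Cd44, a part-time proteoglycan, rose by 0.71 in that comparison. The other 8 core protein genes of the list were not analysed here.

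Summed per kb of exon, the 6 core protein genes gave 457 ± 16.7 CPM in CTL, 458 ± 15.7 in GAL, 651 ± 16.9 in CTK-2 and 645 ± 19.8 in CTK2+GAL (SD, n = 3). Acan made up 4.77% of that sum in CTL and 0.423% in CTK-2. Cspg4 made up 3.69% in CTL and 10.4% in CTK-2. Ptprz1 was the largest part in every group, at 51.2% in CTL and 56.1% in CTK-2, while Vcan went from 31.1% to 11.7% and Cspg5 from 7.78% to 19.8%. The shares describe RNA of the named genes only, not protein or sulfated chains.

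**Figure D2:**
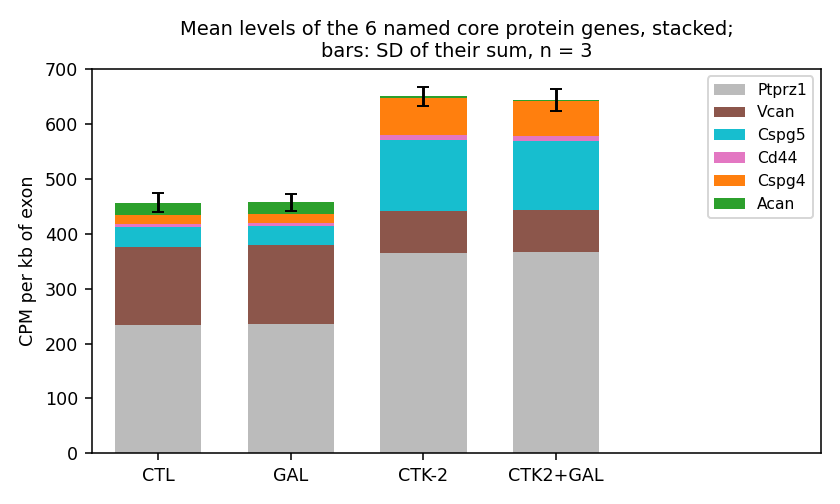
Mean levels of the 6 named core protein genes in CPM per kb of exon, stacked for each group, with the SD of their sum over 3 libraries as the error bar. The sum is 457 in CTL and 651 in CTK-2, and the Acan segment narrows from 21.8 to 2.75 while the Cspg4 segment widens from 16.8 to 67.5.

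Of the 90 genes in 7 lists on core proteins, chains, matrix partners, proteases and receptors, 20 beside Acan and Cspg4 could be named. In CTK2+GAL against GAL, 12 of the 20 were called higher, 7 lower and 1 was not called, and no comparison with the share over all genes is drawn, since genes that did not change had no name. The counts were also 12, 7 and 1 in CTK-2 against CTL, the comparison that the names came from, with Hexa in place of Dsel as the gene not called. There, over the alternatives, 11 to 13 were called higher: Dsel lost its call in 7 of 21 settings, and Dse lost its call without CTL replicate 1. Their log2 fold changes ran from -3.51 (Papss2) to 3.50 (Chst9) in CTK2+GAL against GAL. Both of these genes reached the mean count of 5 only through the groups where they were high. Chst9 had 7 counts in CTL and 6 in GAL, and Papss2 had 17 in CTK-2 and 9 in CTK2+GAL. Their directions are therefore not read as results.

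Both named genes that build the chain were lower. Csgalnact1 encodes an N-acetylgalactosaminyltransferase that starts chondroitin chains, and it averaged 67.3 ± 6.09 CPM in CTL, 29.8 ± 0.540 in CTK-2, 67.8 ± 2.26 in GAL and 33.0 ± 6.70 in CTK2+GAL (SD, n = 3). Chsy3, a chondroitin synthase that lengthens the chain, averaged 16.9 ± 1.08 CPM in GAL and 7.77 ± 1.42 in CTK2+GAL. Their log2 fold changes in CTK2+GAL against GAL were -1.01 and -1.15, and 10 further genes of that list were not analysed here.

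Of the 5 named genes that sulfate or epimerize the chain, 3 were called higher in CTK2+GAL against GAL, 1 lower and 1 was not called. These calls include Chst9 (higher) and Papss2 (lower), which passed the count filter only through the groups where they were high. Chst9, a sulfotransferase that acts on N-acetylgalactosamine, had counts of 0, 3 and 4 in the CTL libraries and 0, 2 and 4 in the GAL libraries. It had counts of 19, 31 and 33 in CTK-2 and 30, 26 and 41 in CTK2+GAL, so it was close to the floor without cytokines and above it in every library with them. Papss2 makes the sulfate donor PAPS, and its counts were 9, 51 and 19 in GAL and 1, 5 and 3 in CTK2+GAL, and it fell by 3.51 on the log2 scale (standard error 0.51). Chst15, which adds a further sulfate to chondroitin sulfate A, rose by 0.81, and Dse, an epimerase that turns chondroitin into dermatan sulfate, rose by 0.80. The gene not called was Dsel, named after its value was seen, at 0.51 (standard error 0.16).

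Genes that break down or cut the proteoglycans also split. Adamts1, a protease that cuts aggrecan and versican, had counts of 4, 9 and 9 in GAL and 22, 26 and 37 in CTK2+GAL, and rose by 1.48. Timp1, an inhibitor of matrix metalloproteases, rose by 1.50, from counts of 3, 7 and 8 to counts of 18, 21 and 32. Adam17, a membrane sheddase, fell by 0.78. Among the lysosomal enzymes, Idua rose by 1.05, Galns by 0.70 and Hexa by 0.60, and Arsb, which removes sulfate from chondroitin, fell by 0.68. Hexa lay at the threshold: it was not called in CTK-2 against CTL at 0.589, and lost its call in CTK2+GAL against GAL in 5 of 21 alternative settings. Without GAL replicate 2, neither Galns nor Hexa was called and the count of genes called higher was 10. Among partners, Tnr, which encodes tenascin-R, a binding partner of lecticans, averaged 3005 ± 148 CPM in GAL and 1887 ± 57.1 in CTK2+GAL and fell by 0.67. Itga3, an integrin subunit that binds NG2, rose by 1.66 from counts of 2, 9 and 8 to counts of 27, 18 and 38.

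**Figure D3:**
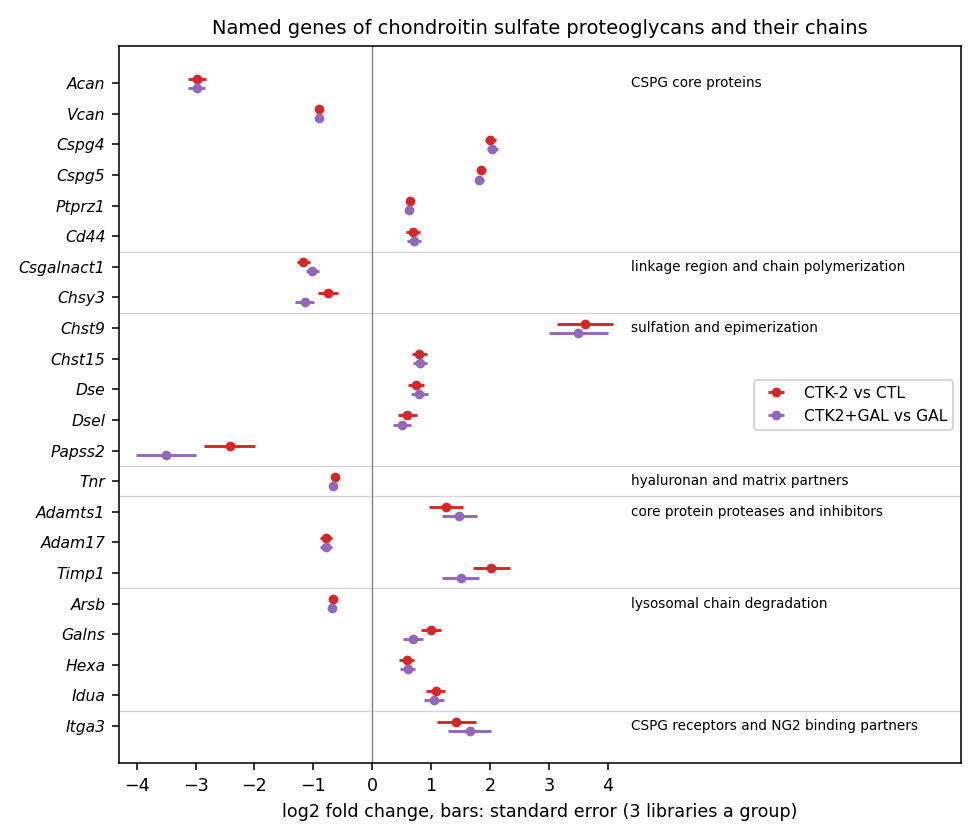
Log2 fold changes of Acan, Cspg4 and the other 20 named genes, grouped by list, in CTK-2 against CTL and in CTK2+GAL against GAL, with the standard error as bars (3 libraries a group). Acan and Papss2 lie farthest to the left and Chst9 farthest to the right, and each gene lies on the same side of 0 in both comparisons.

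Galinex was tested on both genes independently of how they were picked. In GAL against CTL, the log2 fold change of Acan was -0.036 (95% interval -0.283 to 0.212, edgeR adjusted p = 1) and that of Cspg4 was -0.135 (-0.335 to 0.066, edgeR adjusted p = 0.997). Without the third replicates of both groups these were -0.0040 and -0.076. In CTK2+GAL against CTK-2 the values were -0.036 (-0.443 to 0.370) for Acan and -0.096 (-0.283 to 0.090) for Cspg4. The intervals leave out a change of 0.59 in either direction, while smaller changes could not be told from 0 at this depth and number of libraries. Over both backgrounds together, galinex gave -0.036 for Acan (-0.274 to 0.202) and -0.115 for Cspg4 (-0.252 to 0.022, unadjusted p = 0.0935 and adjusted p = 0.831 in edgeR). The cytokine change with galinex differed from that without it by -0.00088 for Acan (-0.458 to 0.456) and by 0.038 for Cspg4 (-0.236 to 0.312). The 2 galinex comparisons share no library, but the interaction and the galinex effect over both backgrounds are built from the same libraries as they are.

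Of all 13348 genes, 0 were called by edgeR in each of these 4 comparisons and 0 by DESeq2, and 574, 545, 822 and 376 had an unadjusted p under 0.05 in GAL against CTL, CTK2+GAL against CTK-2, the effect over both backgrounds and the interaction. None of the 20 other named genes was called. The lowest unadjusted p among them was that of Idua, a lysosomal enzyme, whose log2 change over both backgrounds was -0.31 (95% interval -0.562 to -0.066, unadjusted p = 0.016 and adjusted p = 0.759 in edgeR). Idua was singled out after its value was seen.

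**Figure D4:**
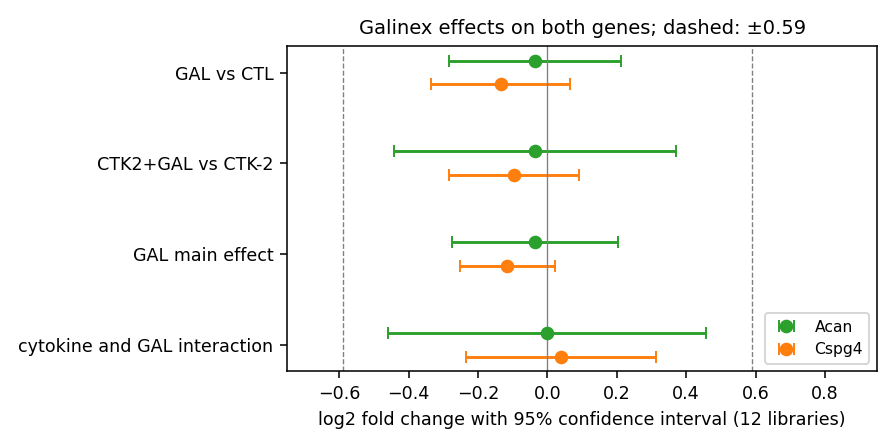
Log2 fold changes of Acan and Cspg4 with 95% confidence intervals from the 12 libraries, for galinex without cytokines, galinex with cytokines, galinex over both backgrounds and the interaction. All 8 intervals hold 0 and lie within the dashed lines at 0.59 in either direction.

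The ratio of Acan to Cspg4 counts within a library needs no scaling between libraries. On the log2 scale the CTL libraries gave 0.40, 0.40 and -0.33 and the GAL libraries 0.40, 0.52 and -0.15. The CTK-2 libraries gave -5.10, -4.75 and -4.68 and the CTK2+GAL libraries -4.68, -4.94 and -4.69. Acan counts therefore exceeded Cspg4 counts in the first and second replicates without cytokines, fell below them in the third, and were 25.7 to 34.3 times below them with cytokines. The means were 0.15 ± 0.42 in CTL, 0.26 ± 0.36 in GAL, -4.84 ± 0.23 in CTK-2 and -4.77 ± 0.15 in CTK2+GAL (SD, n = 3). Galinex moved the ratio by 0.10 without cytokines and by 0.072 with them, and the mean of both, 0.087, had p = 0.6 in a two-sided exact permutation test with 400 arrangements, of which the smallest possible p is 0.005. Without CTL replicate 3 the mean was -0.035 (p = 0.85, exact permutation test). Without GAL replicate 3 the mean was 0.189 (p = 0.335, exact permutation test). Replicate 3 had the lowest ratio in both CTL and GAL (-0.33 and -0.15), so leaving out either alone left the other unmatched. The sign without CTL replicate 3 is therefore not read as a result. The permutation test did not pair same-numbered libraries.

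**Figure D5:**
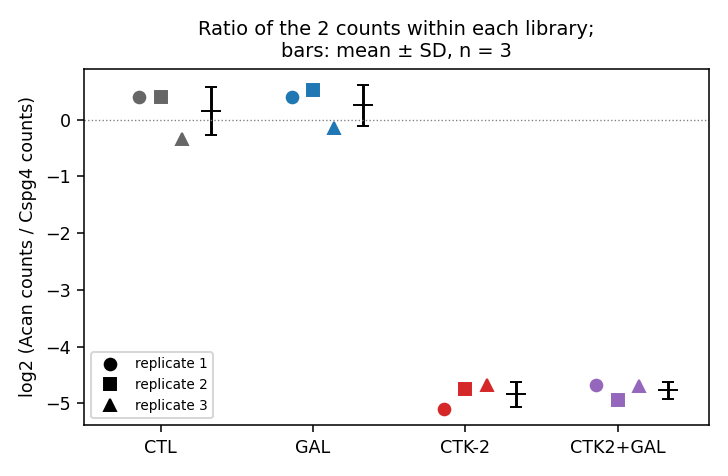
Log2 ratio of Acan to Cspg4 counts in each library, with the mean and SD of each group (n = 3) and a marker shape for each replicate number. The 6 libraries without cytokines lie between -0.33 and 0.52, with the third replicates lowest, and the 6 with cytokines between -5.10 and -4.68.

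Markers of the lineage and of other cells moved with the same cytokines. Mog, Mag, Ugt8, Fa2h, Cldn11 and Tspan2, the 6 named of 12 myelin and oligodendrocyte markers, were called lower in both cytokine comparisons, and their summed level was 1591 to 1769 CPM in CTL, 1724 to 1748 in GAL, 686 to 732 in CTK-2 and 705 to 780.1 in CTK2+GAL. Of 11 OPC markers, 3 could be named beside Cspg4, and these, Pdgfra, Nkx2-2 and Ptprz1, were called higher in both. Pdgfra averaged 415 ± 27.2 CPM in CTL and 701 ± 36.0 in CTK-2 (SD, n = 3). On the log2 scale that was a rise of 0.76, beside 2.00 for Cspg4. These markers and those below could be named only because the study had called them in CTK-2 against CTL. Their calls are therefore no independent evidence, and markers that did not change had no name. Over all genes tested, 17.3% were called in CTK-2 against CTL and 17.4% in CTK2+GAL against GAL. In bulk RNA, fewer cells of a type and less RNA per cell cannot be told apart.

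Of 8 microglial markers, the 3 named were Csf1r, P2ry12 and Ptprc, with a summed level of 1.89 to 7.62 CPM in CTL, 2.51 to 7.22 in GAL, 14.4 to 19.2 in CTK-2 and 14.0 to 16.2 in CTK2+GAL. These sums rest on 76 counts in CTL and 64 in GAL, and Ptprc was at 0 in some CTL and GAL libraries. Csf1r, P2ry12 and Ptprc were each highest in replicate 3 of both groups. Their counts there were 13, 28 and 6 in CTL and 18, 18 and 6 in GAL. P2ry12 and Ptprc were called higher in both cytokine comparisons. Ptprc had 7 counts in CTL and 6 in GAL, against 39 in CTK-2 and 46 in CTK2+GAL. It passed the count filter only through the groups with cytokines, so its call is not read as a result. Csf1r was called higher in CTK-2 against CTL but not in CTK2+GAL against GAL (log2 fold change 0.61, edgeR adjusted p = 0.396). Of 8 astrocyte markers, 2 were named, and Aldoc was called lower and Sox9 higher in both comparisons, with a summed level of 245 to 301 CPM in CTL, 256 to 282 in GAL, 210 to 224 in CTK-2 and 211 to 223 in CTK2+GAL. The neuronal marker Tubb3 (1 named of 8) ran from 80.1 to 98.7 CPM without cytokines and from 156 to 189 with them. Of the fibroblast and cartilage list, where aggrecan is abundant, only Col1a2 could be named of 7 genes, and it ran from 0.688 to 1.94 CPM without cytokines and from 4.86 to 7.97 with them. None of the 10 pericyte markers, which would bear on NG2, could be named. The part of these cells in the Acan and Cspg4 values was not tested.

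The 5 genes whose pattern over the 12 libraries was most like that of Acan were Mgll, Erbb3, Pld1, Matn4 and Abcd2, by the root mean square difference of log2 CPM centred on each gene's own mean. The difference was 0.154 for Mgll and rose to 0.326 for Abcd2, against a median of 1.49 over the 9641 genes whose mean count reached 50. Mgll, which encodes monoglyceride lipase, averaged 97.9 ± 22.2 CPM in CTL and 13.7 ± 1.07 in CTK-2. Erbb3, a neuregulin receptor, averaged 97.1 ± 31.9 CPM in CTL and 15.3 ± 0.736 in CTK-2 (SD, n = 3). Matn4 encodes matrilin-4, another matrix protein, and averaged 98.5 ± 18.6 CPM in CTL and 18.3 ± 2.58 in CTK-2. For Cspg4 the most alike were Trafd1, Smoc1, Grn, Slc38a3 and Dclk2, at differences of 0.079 to 0.136 against a median of 1.04. Trafd1 averaged 106 ± 23.1 CPM in CTL and 426 ± 12.4 in CTK-2, and Grn, which encodes progranulin, 39.1 ± 8.81 and 159 ± 4.21. None of these 10 genes lies on the chromosome of the gene it resembles except Slc38a3, which is on chromosome 8. All 12 libraries enter this measure, the cytokine difference included.

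Around each gene, the 3 nearest tested genes on either side were compared. Of the 6 around Acan, 2 were called in each cytokine comparison, and of those only Abhd2, whose span began 235793 bases after the Acan start, was called in both, with log2 fold changes of 0.84 and 0.80. Of the 6 around Cspg4, 2 were called in both: Snx33, whose span began 52199 bases after the Cspg4 start (1.16 and 1.34), and ENSRNOG00000027109 (0.82 and 0.83). The latter runs on the opposite strand and overlaps Cspg4 over 16043 bases with 0 shared exon bases, and it held 302 counts in all 12 libraries. Counting was strand-specific. Over all genes tested, 17.3% were called in CTK-2 against CTL and 17.4% in CTK2+GAL against GAL, so with 6 neighbours these counts are not read as a result. No neighbour of Acan was called lower, as were only 5.79% and 5.74% of all genes tested.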

How the data were processed

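RNA was measured in 12 libraries, 3 in each of 4 groups. The authors deposited raw counts of read pairs per gene. Per the file headers these were made with featureCounts 2.0.0 on Ensembl release 112 of mRatBN7.2, reversely stranded, with both ends mapped and and leaving out multi-mapping and multi-overlapping pairs. FastQC and STAR are named for the earlier steps, and duplicates were ignored.

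Counts were fitted in 1 model with 4 group means by edgeR 4.0.16 (TMM, quasi-likelihood test, Benjamini-Hochberg) over 13348 of 30562 genes, those with a mean count of at least 5. Calls needed an adjusted p of at most 0.05 and a log2 fold change of at least 0.59. DESeq2 1.42.0 was an alternative. Scripts were tested on simulated data. Acan and Cspg4 and all lists were chosen with earlier results of these data known.

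The files pair no identifiers with symbols. Symbols came from the study's table of genes called in CTK-2 against CTL, whose means and log2 fold changes were used only as keys: 1742 of 1786 entries matched 1 gene, and 1726 of 1727 with a reference position were on the same chromosome. Named were both members, all core protein genes, up to 4 genes of each other list by smallest p in CTK-2 against CTL, the genes most alike, neighbours and markers. Of the marker lists, 2 genes are not reported here. Same-numbered CTL and GAL libraries deviated together (correlations 0.26, 0.26 and 0.60), and correlations between other groups were weak (at most 0.071). In 9 of 12 pairs the same-numbered library was the most alike, so pairing by number beyond CTL and GAL was not settled. RefSeq promoters (GRCr8) were matched by symbol.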

Additional observations from a re-analysis of the deposited data

How the results depend on the processing

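The cytokine changes of Acan and Cspg4 kept their direction in all 21 alternatives. Leaving out 1 library at a time, the log2 fold changes in CTK-2 against CTL ran from -3.10 to -2.89 for Acan and from 1.93 to 2.13 for Cspg4, and those in CTK2+GAL against GAL from -3.13 to -2.87 and from 1.94 to 2.10. With no fold threshold, 5213 genes were called in CTK-2 against CTL and 5290 in CTK2+GAL against GAL. With no filter on low counts, 2 genes were called in GAL against CTL, 4 in the interaction and 1 for galinex over both backgrounds. Leaving out CTL and GAL replicate 3 together, an alternative chosen after seeing the data, gave 3 genes in GAL against CTL and 6 in the interaction. Acan and Cspg4 were not among calls in any galinex comparison under any alternative run.

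The near-zero galinex values changed sign in some alternatives. Leaving out 1 library, Acan ran from -0.157 to 0.120 in GAL against CTL, from -0.124 to 0.073 in CTK2+GAL against CTK-2, from -0.156 to 0.121 in the interaction and from -0.096 to 0.042 over both backgrounds. Cspg4 ran from -0.201 to -0.0096, from -0.145 to -0.059, from -0.087 to 0.105 and from -0.148 to -0.053 in the same 4 comparisons, so without CTL replicate 3 its value in GAL against CTL was -0.0096, and the log2 ratio of Acan to Cspg4 from -0.035 to 0.189. The Acan interaction was 0.0067 with no filter on low counts and 0.0085 with the replicate block, and the Cspg4 interaction was -0.021 without CTL and GAL replicate 3. The cause was not tested.

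With the replicate number as a block, Acan and Cspg4 were -2.97 and 2.01 in CTK-2 against CTL, -2.96 and 2.05 in CTK2+GAL against GAL and -0.027 and -0.132 in GAL against CTL. The log2 ratio had p = 0.469 by exact sign flips over same-numbered libraries in both backgrounds. Between CTK-2 and CTK2+GAL, however, same-numbered libraries correlated only weakly (at most 0.057). The block changed no call of either gene. Treating CTL and GAL alone as pairs, also chosen after seeing the data, gave -0.026 and -0.138. Depth limits Chst9, Papss2, Adamts1, Timp1 and Itga3, which had at most 51 counts in any library.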
